A study of Mus musculus with 12 samples.

Results

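The comparison described here set sorted mouse corticotrophs collected at the end of 4 weeks of dexamethasone (DEX) against corticotrophs of untreated mice. Corticotrophs are the anterior pituitary cells that secrete ACTH, and DEX is a synthetic agonist of the glucocorticoid receptor. The members were all genes with a normalised count above 0.1 in at least 3 of the 12 libraries of the series, which kept 24736 of the 55304 genes in the table. The 3 DEX pools were compared with the 3 control pools, 6 of the 12 libraries.

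All groups were male *Pomc*-eGFP mice on a C57Bl6/J background, 8 weeks old at the start, in which the *Pomc* promoter drives a green fluorescent protein. Control mice drank water for 8 weeks. DEX mice drank water for 4 weeks and then water with 2.5 µg/ml DEX for 4 weeks, and were killed without a recovery period. Mice of 2 further groups stopped DEX 1 week or 4 weeks before collection. They entered the same model and are used below only as a reference for the genes that DEX altered. Each of the 4 groups had 3 pools of sorted cells, and each pool held cells of 2 or 3 mice, so the p-values measure the spread between pools and not between mice. The sort was gated on the product of the *Pomc* promoter, and *Pomc* itself was far lower in DEX, and a gate that held other cells in DEX cannot be told apart from a change within the same cells. In bulk RNA, fewer cells of a type and less RNA per cell likewise cannot be told apart.

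Corticotrophs release ACTH under the drive of hypothalamic CRH and vasopressin, and glucocorticoids from the adrenal feed back on them to lower *Pomc* transcription. The glucocorticoid receptor acts as a transcription factor that raises some genes through DNA elements built from the half-site AGAACA and lowers others, among them *Pomc*. Long exposure to glucocorticoid drugs is known to leave this axis suppressed after the drug is stopped.

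Reads on genes numbered 7719894 to 11443517 in the control pools and 8323298 to 10452188 in the DEX pools, and 1 read was worth 0.0787 to 0.118 normalised counts. A normalised count is the authors' CPM on a TMM-scaled library size. The labelled cell type was checked against its markers. *Pomc* took 3.80% to 8.25% of the reads in control pools and 0.454% to 0.997% in DEX pools, while *Gh*, the growth hormone of somatotrophs, took 8.76% to 20.3% and 8.20% to 11.6%, and *Prl*, the prolactin of lactotrophs, took 3.50% to 7.26% and 5.27% to 8.58%. The libraries therefore held abundant RNA of other endocrine cells in both groups. Control pool 3 stood apart, with 39.7% of its reads on its 10 most abundant genes against 24.5% and 25.3% in the other control pools, and limma's array weights gave it 0.39 and DEX pool 3 0.58, against 1.09 to 1.98 for the other 4. The 4 melanotroph markers summed to 68.4 to 124 normalised counts in control and 85.6 to 96.1 in DEX, and *Pax7* among them was at 0 or at most 0.336.

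DEX changed 30 of the 24736 genes at an adjusted p under 0.05, or 0.121% (limma, all 12 libraries in 1 model, Benjamini-Hochberg). Of these, 27 were higher in DEX (0.109%) and 3 were lower (0.0121%). The 3 lower genes were *Cd74*, *Nmb* and *Esm1*. Without adjustment 1682 genes had a p under 0.05, or 6.8%, of which 890 were higher (3.6%) and 792 lower (3.2%), and 74 had an adjusted p under 0.1 (0.299%). All 3 DEX pools lay outside the range of the control pools for 3174 genes (12.8%), 1634 above it (6.61%) and 1540 below it (6.23%). The median log2 fold change over all tested genes was −0.02. All fold changes are on the log2(normalised count + 0.1) scale, on which the change of a low gene comes out too small. The last gene inside the threshold was *Psg22* (adjusted p = 0.0432) and the first outside it was *Klk1b16* (adjusted p = 0.0510, limma).

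**Figure D1:**
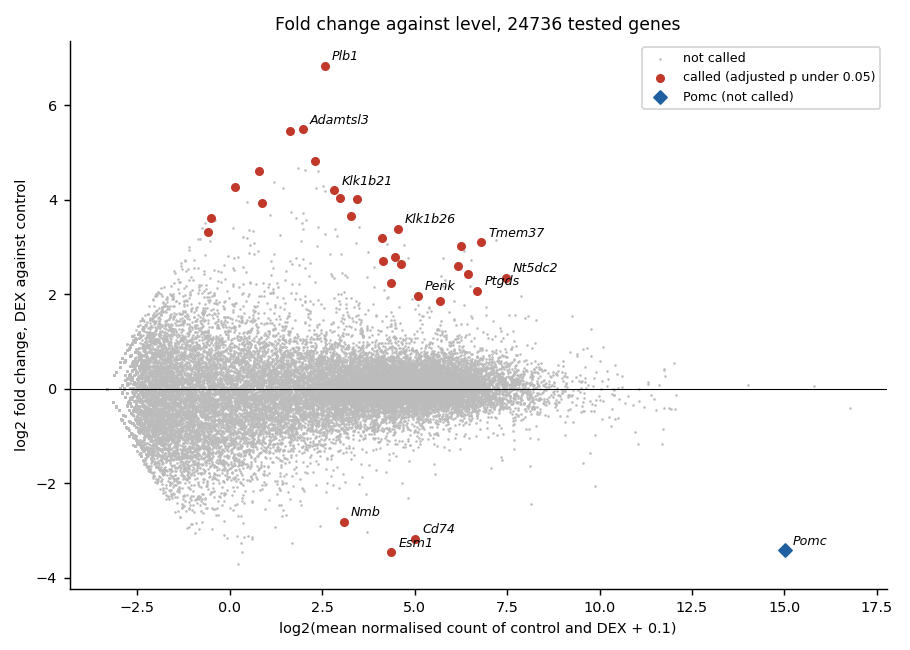
Log2 fold change of DEX against control for each of the 24736 tested genes, plotted against the log2 mean normalised count of both groups plus 0.1. Red points are the 30 genes called by limma, 27 of them above 0, and the blue diamond is *Pomc*, which was not called at a log2 fold change of −3.41.

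The 27 raised genes had log2 fold changes from 1.85 to 6.84 with a median of 3.33, or 3.03 with the 5 genes that had no control read set to their bound. Their mean level had a median of 3.74 normalised counts in control and 30.6 in DEX. In all 27 the DEX pools lay above every control pool. The 3 DEX pools were not alike: pool 3 was the highest in 25 of the 27 genes (92.6%, against 36.6% of all tested genes) and pool 2 the lowest in 24 (88.9%, against 28.9%). The median ratio of pool 3 to pool 2 was 2.66 over the raised genes and 0.943 over all genes. *Pomc* had the opposite order, with its highest DEX value in pool 2 and its lowest in pool 3. What set the pools apart was not tested. Only *Plb1* and *Adamtsl3* passed without DEX pool 3, the same 2 were left without control pool 2, and 5 genes each without control pool 3 and without DEX pool 1. The log2 fold change of *Ptgds* was 1.78 without DEX pool 3 and that of *Klk1b26* was 3.07, against 2.08 and 3.39 with all libraries.

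**Figure D2:**
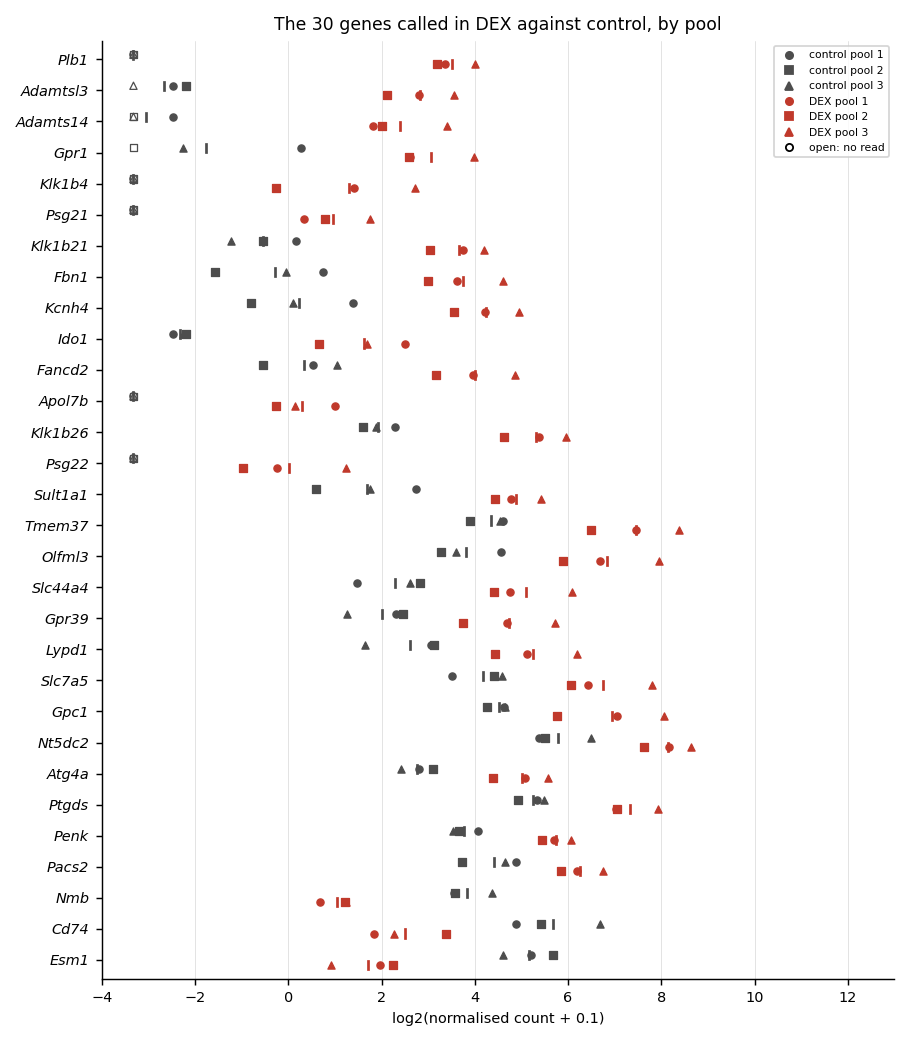
Normalised counts on the log2(value + 0.1) scale of the 30 called genes in the 3 control pools (grey) and 3 DEX pools (red), ordered by fold change, with a vertical bar at each group mean and open symbols for libraries without a read. The pools of the 2 groups do not overlap in any of the 30 genes, and DEX pool 3 (triangle) is the highest red point in 25 of the 27 raised genes.

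The largest increase was that of *Plb1* (chromosome 5, 32232708 to 32366520), a phospholipase that frees fatty acids from membrane lipids. It had no read in the 3 control pools and 10.2, 8.99 and 15.9 normalised counts in DEX pools 1, 2 and 3, which rested on 123, 110 and 142 reads. Its DEX level was at least 38.3-fold higher than 3 reads in each control library (adjusted p = 2.19e-04, limma). It passed with each of the 12 libraries left out. *Ptgds* (chromosome 2, 25466709 to 25470046), the lipocalin-type synthase of prostaglandin D, was a gene with a clear control level. Controls held 40.4, 30.5 and 44.6 normalised counts and DEX pools 130, 132 and 245, a log2 fold change of 2.08 (standard error 0.27, adjusted p = 0.00765, limma). DEX pools 1 and 2 were close to each other, and pool 3 was higher.

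*Adamtsl3* (chromosome 7, 82335694 to 82614450) encodes a secreted matrix glycoprotein related to the ADAMTS proteases. It had 0.0787, 0.118 and 0 normalised counts in control and 6.87, 4.25 and 11.7 in DEX (adjusted p = 0.00183, limma). The 3 control pools together held 2 reads and the DEX pools 239, a ratio of 109 with a 95% counting interval of 29.9 to 908. *Adamts14* (chromosome 10, 61197112 to 61273438), a protease that trims procollagen, had 1 read in all control pools and 3.40, 3.92 and 10.4 normalised counts in DEX (adjusted p = 0.00798, limma). Its ratio of reads was 167 with a counting interval of 29.5 to 6613. The intervals cover counting error only, since the libraries were amplified and carry no molecular identifiers.

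*Fbn1* (chromosome 2, 125300594 to 125507993), the fibrillin of elastic microfibrils, held 1.57, 0.236 and 0.870 normalised counts in control and 12.3, 7.85 and 24.3 in DEX. The difference was 4.04 on the log2 scale (standard error 0.66, adjusted p = 0.0226, limma). *Olfml3*, a secreted olfactomedin-like protein, held 23.7, 9.54 and 12.1 in control and 103, 59.3 and 247 in DEX (log2 fold change 3.03, adjusted p = 0.0152, limma). *Gpc1*, a glypican that carries heparan sulphate at the cell surface, held 24.5, 19.2 and 25.1 in control and 132, 53.9 and 265 in DEX (log2 fold change 2.44, adjusted p = 0.0333, limma). All 3 genes had their highest value in DEX pool 3. The fibroblast and pericyte markers had the opposite sign: none of 11 was called, and all 11 had a fold change below 0. Lower at an unadjusted p under 0.05 (limma) were 2 of them (3.2% of all genes). The 11 markers summed to 101 to 162 normalised counts in control and 79.5 to 121 in DEX. Their part in the rise of these genes was not tested.

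The glandular kallikreins, a cluster of closely related serine proteases on chromosome 7, had more called members than any other list. The lists were drawn up with earlier results of these data known, so their counts and shares give no independent support. Of 14 genes in the list, 13 were tested and *Klk1b1* was not. *Klk1b4*, *Klk1b21* and *Klk1b26* rose, none fell, and 10 of the 13 had all DEX pools above all control pools (76.9%, against 6.61% of all tested genes). The median log2 fold change of the 13 was 3.01, or 2.77 with the 2 genes without a control read at their bound, against −0.02 over all genes. Their summed level was 16.7, 17.2 and 22.5 normalised counts in the control pools and 131, 89.8 and 217 in the DEX pools.

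*Klk1b26* (chromosome 7, 44012168 to 44016968) held 4.80, 2.94 and 3.59 normalised counts in control and 41.4, 24.6 and 61.6 in DEX. Its log2 fold change was 3.39 (standard error 0.52, adjusted p = 0.0158, limma). *Klk1b21* (chromosome 7, 44102328 to 44106583) held 1.02, 0.589 and 0.326 in control and 13.4, 8.09 and 18.3 in DEX, a log2 fold change of 4.20 (adjusted p = 0.0194, limma). *Klk1b4* (chromosome 7, 44207435 to 44211754) had no read in control and 2.57, 0.736 and 6.50 normalised counts in DEX, at least 10.7-fold higher than 3 reads in each control library (adjusted p = 0.0194, limma). All 3 had their lowest DEX value in pool 2 and their highest in pool 3.

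Of the members that missed the threshold, *Klk1b22* had no control read and 0.994, 0.654 and 1.35 normalised counts in DEX (adjusted p = 0.0510), and *Klk1b16* held 7.40, 4.95 and 7.61 in control and 37.6, 30.1 and 80.7 in DEX. *Klk1b27* held 0.393, 1.06 and 2.07 in control and 8.61, 6.13 and 11.9 in DEX (adjusted p = 0.0696). *Klk1*, the true tissue kallikrein, held 2.60, 6.01 and 6.42 in control and 12.8, 12.02 and 16.04 in DEX (log2 fold change 1.52, adjusted p = 0.338, limma). *Klk1b3*, *Klk1b8* and *Klk1b9* had overlapping groups at 0.652 normalised counts or less in every pool. The longest transcript of *Klk1b26* was 83.4% to 91.9% identical to those of *Klk1b21*, *Klk1b4*, *Klk1b16*, *Klk1b24* and *Klk1* over the aligned bases. Reads that match several copies may have been dropped by the mapping quality filter or given to another copy, so the split among members is uncertain, and the members are not independent of each other.

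**Figure D3:**
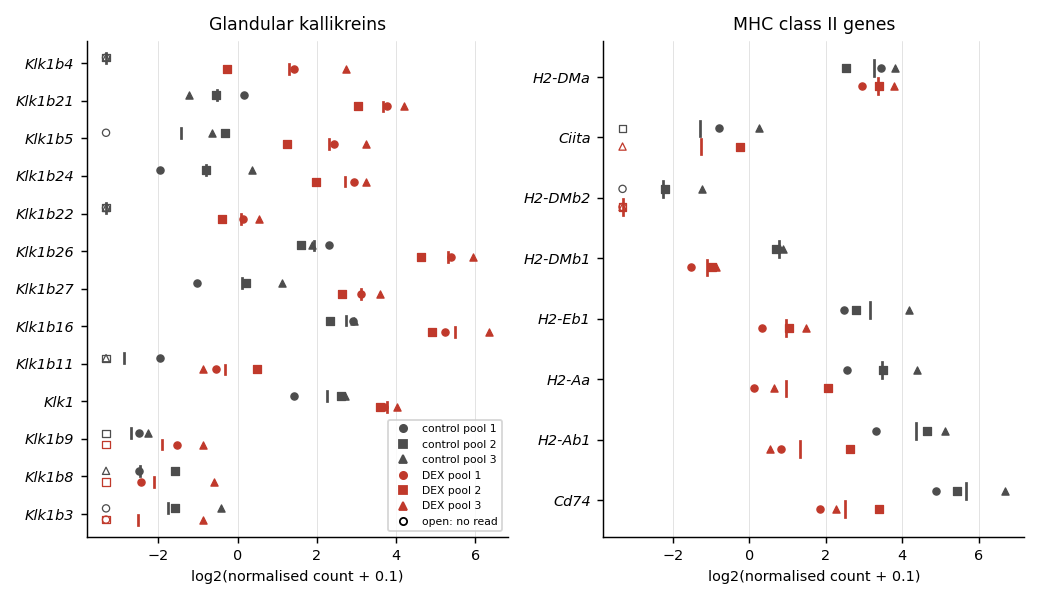
Normalised counts on the log2(value + 0.1) scale of the 13 tested glandular kallikreins (left) and 8 MHC class II genes (right) in the 3 control pools (grey) and 3 DEX pools (red), with a bar at each group mean and open symbols for libraries without a read. The DEX pools lie above every control pool in 10 kallikreins and below every control pool in 5 class II genes.

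The 250 bases before the RefSeq start site (GRCm38.p6) are given for the 2 called kallikreins whose window also lies before the GENCODE gene. They show how alike the copies are upstream. The window of *Klk1b21* is chr7:44102042-44102291 and that of *Klk1b4* is chr7:44207183-44207432, both on the plus strand. Capitals in *Klk1b4* mark bases that differ from *Klk1b21* within the aligned stretch of 202 positions, of which 164 (81.2%) were identical. The windows are offset: the aligned stretch reaches the end of the *Klk1b21* window but stops short of the *Klk1b4* start site. The last bases of the *Klk1b4* window are thus not compared.
Klk1b21: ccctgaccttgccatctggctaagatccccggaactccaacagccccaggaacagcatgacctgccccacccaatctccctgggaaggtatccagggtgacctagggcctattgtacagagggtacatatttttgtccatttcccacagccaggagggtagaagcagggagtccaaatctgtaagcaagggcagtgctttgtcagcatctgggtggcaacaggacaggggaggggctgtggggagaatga
Klk1b4: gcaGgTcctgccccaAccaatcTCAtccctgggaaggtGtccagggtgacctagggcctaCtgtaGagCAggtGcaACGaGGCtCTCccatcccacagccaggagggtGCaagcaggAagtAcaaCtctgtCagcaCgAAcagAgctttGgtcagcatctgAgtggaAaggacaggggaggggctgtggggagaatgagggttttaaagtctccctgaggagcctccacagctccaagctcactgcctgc
Neither window held the half-site AGAACA or its reverse complement TGTTCT.

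Of the 30 called genes, 23 had such an upstream window. The half-site, on either strand, was in 3 of the 23 (13%), against 4912 of 27025 genes with a window (18.2%). The fuller palindromic glucocorticoid response element was in 0 of the 23 and in 0.44% of all genes. The matches lay in *Psg21* (chr7:18656726-18656975), *Sult1a1* (chr7:126676419-126676668) and *Nmb* (chr7:80905063-80905312), all on the minus strand, and are shown in capitals because they are the receptor's half-site beside a called gene.
Psg21: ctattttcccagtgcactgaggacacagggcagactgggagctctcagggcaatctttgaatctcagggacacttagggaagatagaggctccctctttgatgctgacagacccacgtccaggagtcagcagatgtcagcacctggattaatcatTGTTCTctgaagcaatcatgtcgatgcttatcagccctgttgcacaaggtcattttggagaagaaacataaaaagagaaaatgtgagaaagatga
Sult1a1: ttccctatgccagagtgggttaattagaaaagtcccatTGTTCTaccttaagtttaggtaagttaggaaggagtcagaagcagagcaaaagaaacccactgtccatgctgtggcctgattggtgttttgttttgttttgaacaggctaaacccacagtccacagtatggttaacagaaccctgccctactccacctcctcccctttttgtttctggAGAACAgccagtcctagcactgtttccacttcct
Nmb: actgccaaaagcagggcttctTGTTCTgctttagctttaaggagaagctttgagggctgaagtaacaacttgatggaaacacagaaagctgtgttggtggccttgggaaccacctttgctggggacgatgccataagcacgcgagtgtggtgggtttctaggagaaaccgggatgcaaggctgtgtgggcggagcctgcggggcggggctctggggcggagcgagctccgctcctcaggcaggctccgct
A match is a description of the letters in this window, and receptor binding was not measured.

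*Psg21* and *Psg22* (chromosome 7, 18646736 to 18656725 and 18718090 to 18727248), secreted pregnancy-specific glycoproteins best known from the placenta, and the apolipoprotein L gene *Apol7b* (chromosome 15, 77422209 to 77447492) had no read in any of the 9 libraries outside DEX. They passed the filter on low values only through the 3 DEX pools in which they were high, so a difference between the groups was built into their entry to the test. *Psg21* held 1.16, 1.64 and 3.25 normalised counts in DEX (adjusted p = 0.00765), *Psg22* held 0.745, 0.409 and 2.24 (adjusted p = 0.0432) and *Apol7b* held 1.91, 0.736 and 1.01 (adjusted p = 0.0152, limma). These were at least 6.60-fold, 3.71-fold and 3.99-fold higher than 3 reads in each control library. The levels were low, resting on 14, 20 and 29 reads for *Psg21*, and neither edgeR's quasi-likelihood test nor DESeq2 on recovered reads called any of the 3. The transcripts of *Psg21* and *Psg22* were 85.2% identical, and *Apol7b* was 99.3% identical to *Apol7e*, which also had no control read and held 1.74, 0.409 and 0.673 in DEX (adjusted p = 0.0552, limma).

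*Slc7a5*, the transporter of large neutral amino acids, held 11.3, 21.3 and 23.8 normalised counts in control and 86.2, 66.4 and 221 in DEX (log2 fold change 2.59, standard error 0.44, adjusted p = 0.0263, limma). It was the 1 called member of 10 amino acid uptake and one-carbon genes, whose median log2 fold change was −0.00. Its partner chain *Slc3a2* held 173, 178 and 145 in control and 183, 157 and 188 in DEX, with overlapping groups. *Mthfd2*, a mitochondrial folate enzyme, held 54.8, 36.0 and 44.0 in control and 134, 78.2 and 208 in DEX without passing the test (adjusted p = 0.0674, limma).

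*Sult1a1*, a sulphotransferase of phenols, held 6.53, 1.41 and 3.26 normalised counts in control and 27.4, 21.6 and 42.7 in DEX (log2 fold change 3.19, adjusted p = 0.0175, limma). *Slc44a4*, of the choline transporter-like family, held 2.67, 6.95 and 5.98 in control and 27.1, 21.3 and 67.4 in DEX (log2 fold change 2.79, adjusted p = 0.0194, limma). *Ido1*, which opens the breakdown of tryptophan, had 1 read in each control pool and 5.55, 1.47 and 3.14 normalised counts in DEX (adjusted p = 0.0367, limma). It was 1 of the 2 raised genes that were highest in DEX pool 1, with *Apol7b*, and its ratio of reads was 34.5 with a counting interval of 11.5 to 170.

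*Tmem37*, related to the gamma subunits of calcium channels, held 24.3, 14.7 and 23.2 normalised counts in control and 176, 90.3 and 335 in DEX (log2 fold change 3.10, standard error 0.45, adjusted p = 0.0145, limma). *Gpr1*, a chemerin receptor, held 1.10, 0 and 0.109 in control and 5.96, 5.89 and 15.8 in DEX (adjusted p = 0.0294, limma). *Kcnh4*, a voltage-gated potassium channel, held 2.52, 0.471 and 0.979 in control and 18.6, 11.7 and 30.8 in DEX (adjusted p = 0.0367, limma). The groups lay apart in each, but control pools of *Gpr1* and *Kcnh4* differed widely among themselves, with pool 1 the highest in both.

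*Gpr39*, a zinc-sensing receptor, and *Lypd1*, a membrane-anchored protein of the Ly6 family, overlap in exons on opposite strands of chromosome 1. *Gpr39* held 4.88, 5.42 and 2.28 normalised counts in control and 25.8, 13.3 and 52.8 in DEX, and *Lypd1* held 8.26, 8.60 and 3.04 and then 34.5, 21.6 and 72.8 (adjusted p = 0.0350 and 0.0333, limma). The same pools were high and low in both. The library kit does not mark strand, although the counting was set to reverse stranded, so reads of the overlap cannot be told apart and these calls may not be separate. An antisense gene overlapped an exon of 10 of the 30 called genes. *Gpc1* shares exons with *Ankmy1*, which held 5.82, 4.36 and 7.07 in control and 22.1, 11.6 and 56.7 in DEX without being called (adjusted p = 0.0971, limma).

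The raised genes *Nt5dc2*, *Pacs2* and *Atg4a* act inside the cell. *Nt5dc2*, of a family of nucleotidase-like proteins, held 41.5, 45.0 and 90.1 normalised counts in control and 287, 198 and 398 in DEX (log2 fold change 2.35, standard error 0.38, adjusted p = 0.0194, limma). *Pacs2*, a sorting protein of contacts between endoplasmic reticulum and mitochondria, held 29.3, 13.2 and 24.9 in control and 73.3, 57.9 and 107 in DEX (log2 fold change 1.85, adjusted p = 0.0244, limma). *Atg4a*, a protease of autophagy, held 6.84, 8.48 and 5.22 in control and 33.5, 20.9 and 47.1 in DEX (log2 fold change 2.24, adjusted p = 0.0152, limma). *Pacs2* had the smallest fold change among the 30 genes.

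*Fancd2*, of the Fanconi pathway that repairs DNA crosslinks, held 1.34, 0.589 and 1.96 normalised counts in control and 15.4, 8.83 and 29.2 in DEX (log2 fold change 3.65, adjusted p = 0.0229, limma). The 15 genes of cell division did not share this direction, with none called (0 at an unadjusted p under 0.05, limma), a median log2 fold change of −0.73 and 3 of 15 wholly below control (6.23% of all genes). Their summed level was 9.28 to 18.4 in control and 5.63 to 8.75 in DEX. *Top2a*, the topoisomerase of dividing cells, held 0.865, 1.18 and 1.41 in control and 0.497, 0.245 and 0.673 in DEX (adjusted p = 0.792, limma).

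Among 14 neuropeptide precursors, 12 were tested, *Penk* rose and *Nmb* fell. *Penk* (chromosome 4, 4133531 to 4138819), the precursor of the enkephalins, held 16.8, 12.6 and 11.5 normalised counts in control and 51.6, 43.6 and 66.7 in DEX. Its log2 fold change was 1.97 (standard error 0.29, adjusted p = 0.0152, limma), and the spread between pools was small beside the difference. *Nmb* (chromosome 7, 80902227 to 80905076), the precursor of neuromedin B, held 11.7, 11.9 and 20.7 in control and 1.49, 2.21 and 2.24 in DEX. It fell by 2.81 on the log2 scale (standard error 0.45, adjusted p = 0.0194, limma). Both genes share exon bases with another gene. *A830012C17Rik*, antisense to *Penk*, held 2.12, 1.06 and 1.20 in control and 4.64, 3.92 and 8.86 in DEX (adjusted p = 0.235, limma). *Sec11a*, on the same strand as *Nmb*, held 102, 120 and 103 and then 104, 99.8 and 120. How reads of the shared bases were split was not tested.

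The median log2 fold change of the 12 precursors was −0.09. *Cartpt*, the precursor of the CART peptides, held 9.05, 10.6 and 12.4 normalised counts in control and 42.6, 16.4 and 90.3 in DEX, with a wide spread (adjusted p = 0.339, limma). *Nmu*, the neuromedin U precursor, held 1.02, 1.18 and 1.41 in control and 0, 0.164 and 0.336 in DEX (adjusted p = 0.233, limma). *Gal*, the galanin precursor, overlapped between the groups at 21.9 to 44.5 and 32.9 to 99.1.

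*Cd74* (chromosome 18, 60803848 to 60812652), the invariant chain that escorts MHC class II molecules to the endosome, held 29.6, 42.8 and 104 normalised counts in control and 3.48, 10.4 and 4.71 in DEX. It fell by 3.17 on the log2 scale (standard error 0.46, adjusted p = 0.0145, limma). It was the 1 called member of 8 MHC class II genes, and 5 of the 8 had all DEX pools below all control pools (62.5%, against 6.23% of all genes). Their median log2 fold change was −2.04, or −2.19 without *H2-DMb2*, which was at or near 0 in both groups. The summed level was 63.4, 92.9 and 194 in the control pools and 15.8, 34.0 and 24.3 in the DEX pools.

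The other class II genes with separate groups did not pass the test. *H2-Ab1* held 9.76, 24.97 and 34.9 normalised counts in control and 1.66, 6.05 and 1.35 in DEX (adjusted p = 0.0824), and *H2-Aa* held 5.74, 11.1 and 20.9 and then 0.994, 4.09 and 1.46 (adjusted p = 0.103, limma). *H2-DMa*, which loads peptides on class II molecules, overlapped at 5.65 to 13.8 and 7.54 to 13.7. Markers of antigen-presenting cells, which carry class II, had smaller differences. Of 13 macrophage markers none was called (0 at an unadjusted p under 0.05, limma), and the median log2 fold change was −0.38. Their fold changes were below 0 in 10 and above 0 in 3. Wholly below control were 3 (23.1%, against 6.23% of all genes), and 0 lay wholly above it. The summed level was 31.6 to 48.0 in control and 27.2 to 39.4 in DEX. *Csf1r*, which defines macrophages, held 10.7, 9.42 and 8.70 in control and 9.36, 11.1 and 12.4 in DEX, and *Lyz2* overlapped as well. Of 7 B and plasma cell markers 6 were tested with none called (median −1.09), and their sums of 5.65 to 8.48 and 6.73 to 10.5 overlapped. The part of these cells in the fall of *Cd74* was not tested.

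MHC class I genes had smaller differences, with none of 14 called and a median of −0.66. At an unadjusted p under 0.05 (limma), 6 were lower (3.2% of all genes) and 1 higher (3.6%). Wholly below control were 7 members (50%, against 6.23% of all genes), and *B2m* lay wholly above it (7.14%, against 6.61%). *H2-D1* held 511, 448 and 435 normalised counts in control and 276, 324 and 343 in DEX (adjusted p = 0.736), and the immunoproteasome subunit *Psmb8* held 29.98, 27.3 and 34.4 and then 11.6, 14.1 and 15.0 (adjusted p = 0.117, limma). *B2m*, the light chain of class I, held 162, 207 and 227 in control and 247, 288 and 367 in DEX. The light chain and *H2-D1* thus had opposite signs, neither of them past the test.

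*Esm1* (chromosome 13, 113209659 to 113218098), a proteoglycan secreted by endothelium, held 36.8, 51.4 and 24.1 normalised counts in control and 3.81, 4.66 and 1.79 in DEX. It fell by 3.45 on the log2 scale (standard error 0.59, adjusted p = 0.0302, limma), and stayed called in 4 of the 12 leave-one-out fits. The 12 endothelial markers had fold changes below 0 throughout, with a median of −1.68 and none called. Wholly below control were 4 (33.3%, against 6.23% of all genes), and 6 were lower at an unadjusted p under 0.05 (3.2%, limma). The 12 summed to 10.1, 43.1 and 75.6 in the control pools and 4.89, 11.3 and 7.18 in the DEX pools, so control pool 1 lay within the DEX range. *Kdr*, the endothelial receptor for VEGF, held 3.30, 9.54 and 6.42 in control and 0.994, 2.698 and 0.673 in DEX (adjusted p = 0.281, limma). The part of endothelial cells in the fall of *Esm1* was not tested.

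*Pomc* (chromosome 12, 3954951 to 3960642), which encodes the precursor of ACTH, was far lower in DEX but did not pass limma's threshold. It held 74260, 34562 and 74221 normalised counts in control and 4362, 8521 and 4241 in DEX. The log2 fold change was −3.41 with a moderated standard error of 1.10, and the adjusted p was 0.424 (limma). The same model with robust moderation gave an adjusted p of 0.0159 (limma). A two-sided exact permutation test over the 6 pools gave p = 0.1, the smallest that 20 arrangements allow. On recovered reads it passed edgeR's quasi-likelihood test (adjusted p = 0.0435) and DESeq2 (adjusted p = 1.19e-07), so the call on *Pomc* depends on the test. The 250 bases before its start site (chr12:3954695-3954944, plus strand) are given with the TATA motif in capitals, which begins 25 bases before the start and is found in 8.94% of all such windows.
Pomc: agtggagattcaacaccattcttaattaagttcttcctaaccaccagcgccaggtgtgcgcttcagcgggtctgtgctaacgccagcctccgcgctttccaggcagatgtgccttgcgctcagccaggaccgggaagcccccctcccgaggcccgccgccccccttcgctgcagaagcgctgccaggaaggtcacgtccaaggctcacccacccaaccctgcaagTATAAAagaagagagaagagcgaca

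Of 7 corticotroph markers, *Pomc* included, none was called, and their median log2 fold change was −0.30. Without adjustment, 2 had a p under 0.05 (limma): *Pomc* was lower (3.2% of all genes) and *Tbx19* higher (3.6%). *Tbx19*, the transcription factor that specifies the lineage, held 459, 229 and 218 normalised counts in control and 769, 498 and 1490 in DEX (adjusted p = 0.685, limma). *Avpr1b*, the pituitary vasopressin receptor, held 60.0, 25.6 and 12.1 and then 103, 67.9 and 130 (adjusted p = 0.741, limma). Both lay wholly above control (28.6% of the 7, against 6.61% of all genes) and *Pomc* wholly below it (14.3%, against 6.23%). *Crhr1*, the CRH receptor, overlapped at 85.5 to 189 and 52.7 to 138. The 4 melanotroph markers had a median of −0.06 and the 14 markers and hormones of other endocrine cells one of −0.18, with none called and summed levels of 113963 to 308608 in control and 117343 to 175824 in DEX.

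Prohormone processing and granule genes lay mostly a little lower, with none of 11 called, 10 fold changes below 0 and a median of −0.46. Only 1 was lower at an unadjusted p under 0.05 (limma), against 3.2% of all genes. *Cpe*, the carboxypeptidase of granules, held 2026, 1814 and 1407 normalised counts in control and 1126, 1355 and 938 in DEX (adjusted p = 0.821). *Scg2*, *Scg3* and *Scg5* were also wholly below control, which made 4 of the 11 (36.4%, against 6.23% of all genes). *Chga*, another granin, lay wholly above control (9.09% of the 11, against 6.61% of all genes). It held 643, 588 and 732 and then 898, 852 and 1537 (adjusted p = 0.741, limma). The convertase *Pcsk1* overlapped at 155 to 521 and 202 to 244. Of 11 receptors for hypothalamic and other inputs none was called (median −0.10), with 5 fold changes above 0 and 6 below it. Wholly above control were 2 (18.2%, against 6.61% of all genes) and wholly below it 2 (18.2%, against 6.23%). Among those below, *Ghsr*, the ghrelin receptor, held 5.90, 10.96 and 2.61 in control and 1.16, 1.88 and 0.785 in DEX (adjusted p = 0.302, limma).

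Of 20 genes known to respond to glucocorticoids in many tissues, limma called none. At an unadjusted p under 0.05, 5 were higher (3.6% of all genes) and 0 lower (3.2%), 4 lay wholly above control (6.61% of all genes) and 3 wholly below it (6.23%). Of their fold changes 15 were above 0, and the median was 0.26 against −0.02 over all genes. *Fkbp5*, a co-chaperone of the receptor, held 80.8, 86.8 and 106 normalised counts in control and 545, 230 and 354 in DEX, a log2 fold change of 1.97 that missed the threshold (standard error 0.42, adjusted p = 0.0971, limma). *Klf15*, a transcription factor, held 15.5, 23.6 and 26.3 and then 50.8, 35.9 and 65.8 (adjusted p = 0.599). *Zbtb16* and *Tgm2* also lay wholly above control, and *Mt1*, *Mt2* and *Nfkbia* wholly below it. *Mt1*, a metallothionein, held 4337, 4267 and 4398 in control and 3698, 3182 and 2916 in DEX (adjusted p = 0.906, limma). The 14 genes of the receptor, its chaperones and steroid handling had a median of −0.12 with none called, and the receptor gene *Nr3c1* overlapped at 99.1 to 165 and 104 to 110.

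**Figure D4:**
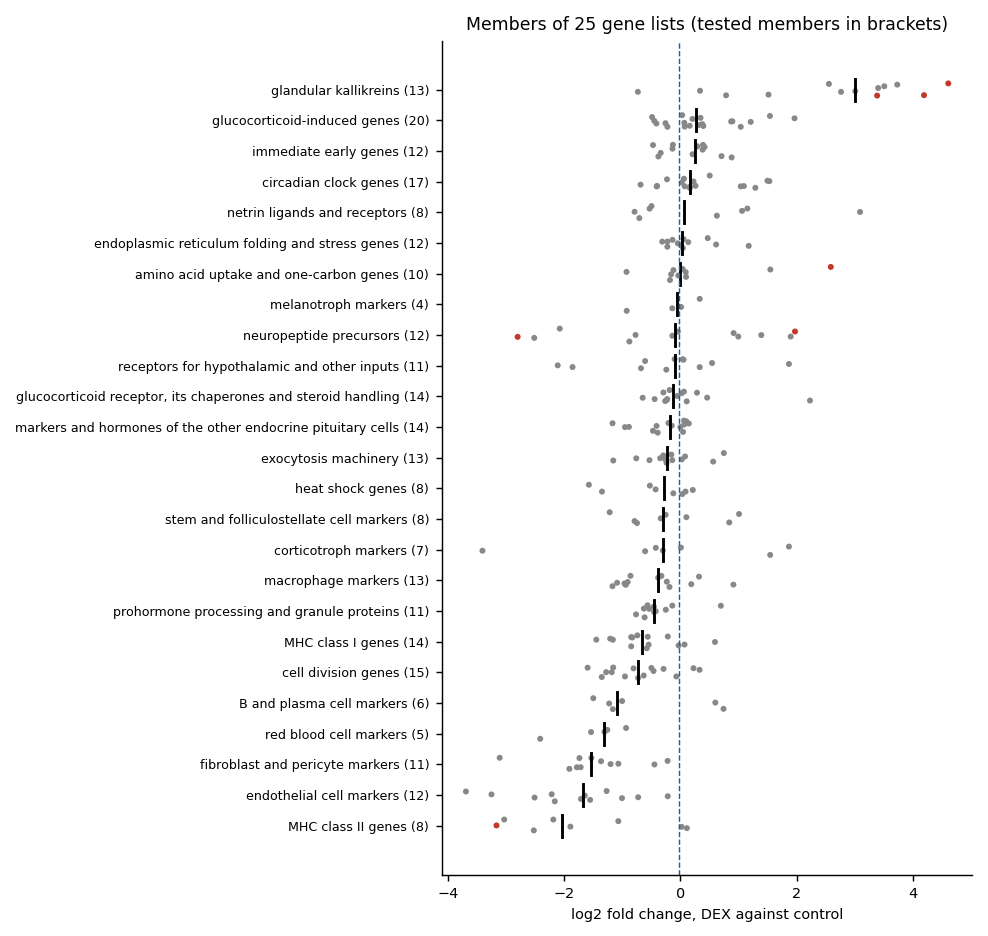
Log2 fold changes of DEX against control for the tested members of 25 gene lists, with the number tested in brackets, a black bar at each list's median, red points for called genes and a dashed line at the median of all tested genes (−0.02). Glandular kallikreins have the highest median, 3.01, and MHC class II genes the lowest, −2.04.

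On recovered reads, edgeR's quasi-likelihood test called 42 genes (0.17%) and DESeq2 190 (0.768%). Both called 16 genes with separate groups that limma did not, *Pomc* and 15 higher genes, with limma adjusted p from 0.0510 to 0.102 among these 15. The 10 with the largest increase were *Krt19*, *Bmp8a*, *4833405L11Rik*, *Cdh22*, *Dgki*, *Fam131c*, *Klk1b24*, *Tnnt1*, *Klk1b16* and *Mettl21e*. *Krt19*, a keratin of epithelia, held 0.157, 0 and 0.217 normalised counts in control and 5.72, 1.14 and 16.9 in DEX (limma adjusted p = 0.0800). *Tnnt1*, the slow skeletal troponin T, was steady in control at 26.4, 27.9 and 28.4 and held 240, 150 and 408 in DEX (limma adjusted p = 0.0785). *Bmp8a*, a bone morphogenetic protein, held 0.236, 0.471 and 0.217 and then 11.2, 1.96 and 19.7 (limma adjusted p = 0.0552). These 3 repeated the order of the DEX pools seen in the called genes, with pool 2 lowest and pool 3 highest.

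The 27 raised genes were also read in the mice taken off DEX. The groups after withdrawal share the control pools with the DEX comparison. The genes were also chosen for DEX pools that lay apart from control, so later values nearer to control are partly built in. For *Psg21*, *Psg22* and *Apol7b*, which had no read outside DEX, a place below the DEX pools was fixed by their entry. These 3 are counted among the 27. The later values are therefore a description and no test of return, and the same counts were not made over all tested genes. At 1 week, all 3 pools lay below the lowest DEX pool in 27 of the 27 raised genes and the mean was within the control range in 19. At 4 weeks these counts were 26 and 15, and the median log2 fold changes against control were 0.11 and 0.34. They ran from −1.20 to 2.42 at 1 week and from −1.63 to 1.45 at 4 weeks. All 3 pools still lay above control in 2 of the 27 genes at 1 week and in 5 at 4 weeks, and below it in 0 and 2. The exception at 4 weeks was *Penk*, with 22.0, 44.2 and 29.0 normalised counts against 43.6 in its lowest DEX pool. For the 3 lowered genes all pools lay above the highest DEX pool at both times.

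The number of called genes depended on which library was left out and ran from 2 to 73. Other models gave 274 calls with edgeR's likelihood ratio test (1.11%), 166 with array weights (0.671%), 47 with limma-voom (0.19%) and 1, *Plb1*, with control and DEX libraries alone (0.00404%). The count was 2 without control pool 2 and without DEX pool 3, 5 without control pool 3 and without DEX pool 1, and 47, 46 and 73 without DEX pool 2 and without pools 2 and 3 of the 1-week group. *Plb1* and *Adamtsl3* passed in all 12 fits, *Psg21* and *Ptgds* in 10, and *Gpr39* and *Psg22* in only 3.

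**Figure D5:**
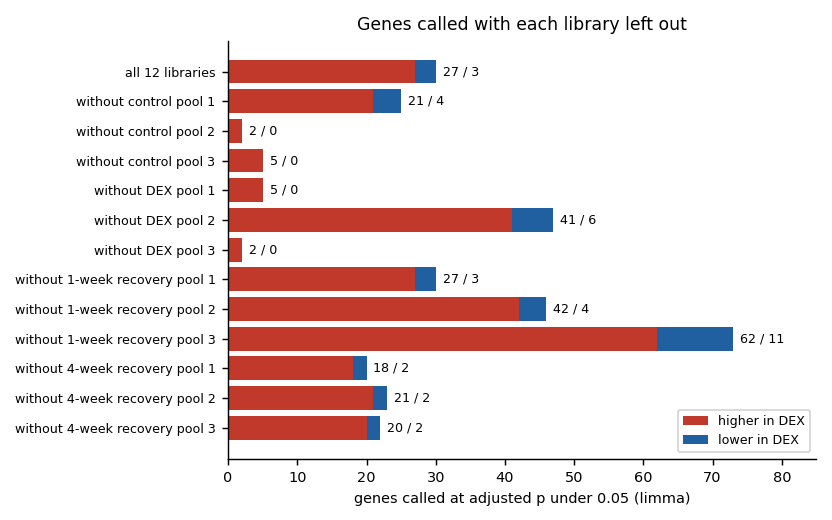
Number of genes called by limma for DEX against control with all 12 libraries and with each library left out, split into higher (red) and lower (blue) in DEX, with both counts beside each bar. The count falls from 30 to 2 without control pool 2 or DEX pool 3 and reaches 73 without pool 3 of the 1-week recovery group.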

How the data were processed

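RNA of sorted *Pomc*-eGFP cells, amplified with the SMART-V4 kit, was sequenced on 1 lane. The authors trimmed reads with Trim Galore 0.6.5, aligned them to GRCm38 with STAR 2.7.1a and counted them per gene with featureCounts 2.0.0, keeping mapping qualities from 20 up and counting as reverse stranded, although the kit does not mark strand. The deposited values are a normalised signal, the CPM of the TMM-scaled library size. Recovered to reads, 100% of 271881 values above 0 were whole within 1e-06, so the count tests were run as alternatives. The design had taken the values for plain CPM, and its limma test was kept. Groups were taken from the sample titles, and all columns belong to listed samples.

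Genes above 0.1 in at least 3 libraries were fitted with limma 3.58.1 (R 4.3.3; lmFit and eBayes with trend) on log2(value + 0.1), with 4 group means, 12 libraries and no covariate. Adjusted p under 0.05 was called, and the scripts were tested on simulated data. edgeR 4.0.16 and DESeq2 1.42.0 were alternatives. A floor is 3 reads in each library. Counting intervals are exact 95% intervals of the ratio of summed reads. Coordinates and overlaps are from GENCODE M21 on GRCm38. Motifs were searched on both strands, except TATAAA on the sense strand.

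The members and the 25 lists were chosen with earlier results of these data known. Named were all called genes, *Pomc*, the genes called by both count tools only, and called or abundant list members. Other names, such as *Apol7e*, *Ankmy1* and list members with separate groups, were chosen after their values were seen.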

Additional observations from a re-analysis of the deposited data

How the results depend on the processing

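The 30 calls (27 higher, 3 lower) became 49 (46 higher) with a pseudocount of 0.5, 54 (51 higher) with 1, 166 (119 and 47) with array weights, 190 (132 and 58) with DESeq2, 274 (175 and 99) with edgeR's likelihood ratio test and 47 (45 higher) with limma-voom. With control and DEX libraries alone, limma called 1 gene (1 higher, 0 lower; 1821 at an unadjusted p under 0.05). The calls stayed within 1.5 times of 30 without a filter, with a filter at 1, with median ratio or quantile scaling, robust moderation and the quasi-likelihood test (24 to 44). Leaving out each library gave 2 to 73 calls, 2 to 62 higher and 0 to 11 lower. All 30 genes were also called with array weights, median ratios, quantile scaling, robust moderation and edgeR's likelihood ratios, and 26 with the quasi-likelihood test and with DESeq2. *Pomc* kept its direction and became significant with robust moderation (−3.41, adjusted p = 0.0159, limma), both quasi-likelihood fits (−3.42, and −3.53 with the block), the likelihood ratio test (−3.42), DESeq2 (−3.44) and limma-voom (−3.41). Alternatives were run gene by gene for *Pomc*, the 30 called genes and the 10 listed genes that the count models alone called, and none of these changed sign. Why the settings differ was not tested.

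Pool numbers are shared by the groups, but same-numbered control and DEX pools did not deviate together over all genes (correlations 0.00702, −0.0110 and −0.0348). No pool was most like its own number. Such correlations cannot exclude a pairing that touches only some genes, and the main fit did not pair the pools. With the replicate number as a block, limma called 34 genes (27 higher, 7 lower), or 0 with control and DEX libraries alone (0 higher, 0 lower; 1614 at an unadjusted p under 0.05), and the quasi-likelihood test 87 (70 and 17). Genes near 1 read in a library are limited by depth, and a difference there was often not detectable.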

Other observations

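Of 17 clock genes none was called. Higher at an unadjusted p under 0.05 (limma) were 5 (3.6% of all genes), and 5 lay wholly above control (6.61% of all genes; *Per3*, *Nr1d2*, *Dbp*, *Tef* and *Ciart*), while *Nfil3* lay wholly below it, and the median log2 fold change was 0.17. *Tef*, a transcription factor of the clock's output, held 52.7, 49.8 and 50.2 normalised counts in control and 107, 79.2 and 151 in DEX (adjusted p = 0.148, limma). *Dbp*, a related output factor, held 7.16, 12.7 and 18.6 and then 24.1, 21.4 and 48.8 (adjusted p = 0.361), and *Nr1d2*, a nuclear receptor of the clock loop, held 73.3, 72.8 and 18.8 and then 164, 104 and 134 (adjusted p = 0.339, limma). *Cry2*, a repressor of the same loop, overlapped at 104 to 233 and 124 to 181. Of 8 netrin ligands and receptors none was called and the median was 0.06, but 2 were higher at an unadjusted p under 0.05 (3.6% of all genes, limma). *Unc5b* held 1.73, 0.825 and 4.78 in control and 13.4, 12.8 and 29.4 in DEX (log2 fold change 3.09, adjusted p = 0.105), and *Unc5a* held 55.5, 79.6 and 99.4 and then 180, 135 and 199 (adjusted p = 0.208, limma). *Dcc*, another netrin receptor, overlapped at 15.5 to 35.1 and 7.96 to 22.7.

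The other lists had no called member. Their median log2 fold changes were 0.25 for 12 immediate early genes, 0.02 for 12 endoplasmic reticulum folding and stress genes, −0.24 for 13 genes of the exocytosis machinery, −0.28 for 8 heat shock genes, −0.30 for 8 stem and folliculostellate markers and −1.31 for 5 red blood cell markers. *Egr3*, an immediate early transcription factor, held 42.1, 40.8 and 39.7 in control and 67.6, 57.1 and 76.9 in DEX (adjusted p = 0.754, limma). The heat shock gene *Hspa1a* spread widely within groups, with 165, 568 and 2724 in control and 172, 767 and 72.6 in DEX. Of the 8 stem and folliculostellate markers, 5 had a fold change below 0 and 3 above it. *Cyp2f2*, a marker of folliculostellate cells, was the only 1 wholly above control (12.5%, against 6.61% of all genes), and 0 lay wholly below it. It held 113, 88.6 and 231 in control and 270, 261 and 267 in DEX (adjusted p = 0.463, limma).

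In the whole table, 78 genes had no read in control and reads in every DEX pool, 125 had the reverse, and 16 had reads in every DEX pool and in none of the other 9 libraries. *Lyve1*, a hyaluronan receptor of lymphatic vessels and some macrophages, had no control read and held 0.828, 1.31 and 1.01 normalised counts in DEX (adjusted p = 0.140, limma). *Gpihbp1*, of capillary endothelium, held 0.0787, 0.825 and 2.83 in control and had no read in DEX (adjusted p = 0.445, limma). Both were named after their values were seen.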
